A study of Mus musculus with 6 samples.

Results

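The genes described here encode the enzymes that hydroxylate and crosslink collagen, together with the chaperone that accompanies collagen out of the endoplasmic reticulum. They were chosen by gene symbol and are Lox, Loxl1, Loxl2, Loxl3, Plod1, Plod2, Plod3, P4ha1, P4ha2 and Serpinh1, which are 10 of the 17460 genes in a table of liver RNA sequencing. All 10 were found in the table, and all 10 were above the minimum set for testing in every liver.

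Fibrillar collagen is built in steps. Prolyl 4-hydroxylase, a complex of an alpha subunit (P4ha1, P4ha2 or P4ha3) and protein disulfide isomerase (P4hb), hydroxylates prolines of the new chain so that the triple helix is stable at body temperature, and lysyl hydroxylases (Plod1, Plod2 and Plod3) hydroxylate lysines that will later carry sugars or crosslinks. Hsp47, the product of Serpinh1, binds the folded triple helix until it leaves the endoplasmic reticulum. Outside the cell the copper enzymes of the lysyl oxidase family (Lox and Loxl1 to Loxl4) oxidize lysines and hydroxylysines, and the aldehydes condense into the crosslinks that make a fibrotic scar stiff. In injured liver much of this work is done by activated stellate cells and portal fibroblasts, whereas several of the intracellular enzymes are expressed in many cell types.

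The livers came from 6 mice of strain C57BL/6, 3 control and 3 Blnc1 LKO, all 9 months old and all fed the NASH diet, rich in fructose, trans fats and cholesterol, for 24 weeks. By the study's methods, Blnc1 LKO mice were Cas9 transgenic mice that received through the tail vein an adenovirus with guide RNAs on both sides of Blnc1, a long noncoding RNA. Control mice of another cohort of the study were also Cas9 transgenic mice and received a GFP adenovirus. For the control mice of the NASH cohort, neither the virus nor the Cas9 genotype is named there. Cas9 in the Blnc1 LKO mice was not limited to a single cell type. The deletion was limited to cells that the adenovirus reached, which in liver are mainly hepatocytes. The question was how loss of Blnc1 in the liver changed the response to the NASH diet. The table lists no gene named Blnc1, so its loss was not measured here.

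Libraries were made from polyA RNA with a kit that does not mark strand. The number of reads on the listed genes was between 65384969 and 89350181 per liver. The values are normalized read counts, that is reads on a gene divided by a scaling factor for the liver. Pairs of livers within a group had a chi-square per degree of freedom between 20.8 and 70.0, far above that of repeated counts of one library, and were treated as separate samples. The labels number the livers without naming the mouse behind each, so p-values measure the spread between these samples. These are whole-liver values, in which fewer cells of a type and less RNA per cell cannot be told apart.

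The lysyl oxidase family shares a copper-binding site near the end of the protein, and the codons of that site are printed because they show how far apart the members are in a stretch that the family shares. Capitals mark bases that differ from Loxl2. Sequences are spliced and come from the transcripts of GENCODE release M21 (build GRCm38, also called mm10), and Lox is not printed. The stretch starts in exon 10 of 14 of Loxl2 on the + strand (chr14:69682322-69689040), in exon 3 of 7 of Loxl1 on the - strand (chr9:58293717-58294375), in exon 10 of 14 of Loxl3 on the + strand (chr6:83050001-83050128), and in exon 11 of 15 of Loxl4 on the - strand (chr19:42598804-42599893). It has an intron inside in each of these genes.
Loxl2: tggcacgactgccacaggcactaccacagc
Loxl4: tggcacCaGtgccacaggcactaccacagc
Loxl3: tggcaTgaGtgTcaTGggcaTtaccacagT
Loxl1: tggcaTAGctgTcacCAAcaTtaccacagc
In this stretch of 30 bases Loxl4 differed from Loxl2 at 2, Loxl3 at 7 and Loxl1 at 8. None of the 10 genes shared a run of 50 bases with another member of its enzyme family (0%), so reads of that length separate the family members. Loxl2 is the exception with regard to other genes. Of its 5356 distinct runs of 50 bases, 2299 (42.9%) also occur in Gm21451, which GENCODE lists as an unprocessed pseudogene on the same chromosome (chr14:69390854-69480287, + strand). Gm21451 was not analysed here, and the value of Loxl2 is uncertain because reads on that copy may have been split or dropped. At their ends, Loxl3 overlaps Htra2 over 11.6% of its exon bases and Plod3 overlaps Znhit1 over 11.7%, both on opposite strands, and Plod2 and Loxl2 overlap the opposite-strand genes Gm38391 and Gm27177 over 6.42% and 5.57%. Without strand such reads cannot be told apart. Htra2 and Znhit1 had log2 fold changes of -0.03 and 0.04 (unadjusted p = 0.737 and 0.601, limma).

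Several of these genes are known targets of hypoxia-inducible factor (HIF), whose core motif is ACGTG. RefSeq promoter sequences (GRCm38.p6, from 250 bases before to 50 after the start) were at hand for 5 of the 10 genes, Plod1, Plod3, P4ha1, P4ha2 and Serpinh1. The motif, searched on both strands and shared with the E-box CACGTG, was present in 4 of these 5 and in 19.6% of all 32851 promoters. The matches are shown with the motif in capitals, on the strand of the gene, as a description of these windows and not as sites of binding.
Plod3 (chr5:136986953-136986982, + strand): cttgaagtcattACGTGatgttcccttgga
P4ha1 (chr10:59323268-59323297, + strand): tgtgacagagcgCACGTagcgagggctgcg
P4ha2 (chr11:54100834-54100863, + strand): tgtgcatcgcatACGTGcagcgcgtggcgg
Serpinh1 (chr7:99353393-99353422, - strand): accctgcttttcCACGTccaggaccgcgga
They begin 54, 16, 78 and 171 bases before the annotated start, in the order printed. The promoter of P4ha2 holds a second match 10 bases after the start. The heat shock element (GAANNTTC or TTCNNGAA) was found in the windows of Plod1 and P4ha2 and in 15.1% of all promoters.

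The 10 genes differed widely in level. In reads per kb of exon, scaled to the reads of the library (RPKM), Serpinh1 was the most abundant in control livers at 24.6 ± 0.96 (mean ± SD, n = 3), followed by Plod1 at 12.8 ± 0.46, Plod3 at 7.30 ± 0.44 and P4ha1 at 5.93 ± 0.60. Loxl1 at 4.22 ± 0.10 and Loxl2 at 3.23 ± 0.12 came next. Loxl3 at 1.28 ± 0.11, P4ha2 at 1.17 ± 0.10, Plod2 at 1.06 ± 0.12 and Lox at 0.82 ± 0.21 closed the order. The ranges of the 3 control livers did not overlap between any neighbours from Serpinh1 down to Loxl3. They overlapped between Loxl3 and P4ha2, P4ha2 and Plod2, and Plod2 and Lox, so the order of these 4 is not resolved by the spread between livers. With the longest transcript in place of all exons as the length, the top 6 kept their order and P4ha2 (2.38) moved ahead of Plod2 (1.56) and Loxl3 (1.44). Serpinh1, Plod1, Plod3 and P4ha1, which act inside the cell, were each above all 4 secreted oxidases, whereas Plod2 and P4ha2 were below Loxl1 and Loxl2. Lox, the founding member of its family, had the lowest mean level. The place of Loxl2 in the order, also below Loxl1, carries a doubt that the spread between livers does not measure. Reads shared with its pseudogene copy may have been split or dropped, and the effect on its level was not tested.

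**Figure D1:**
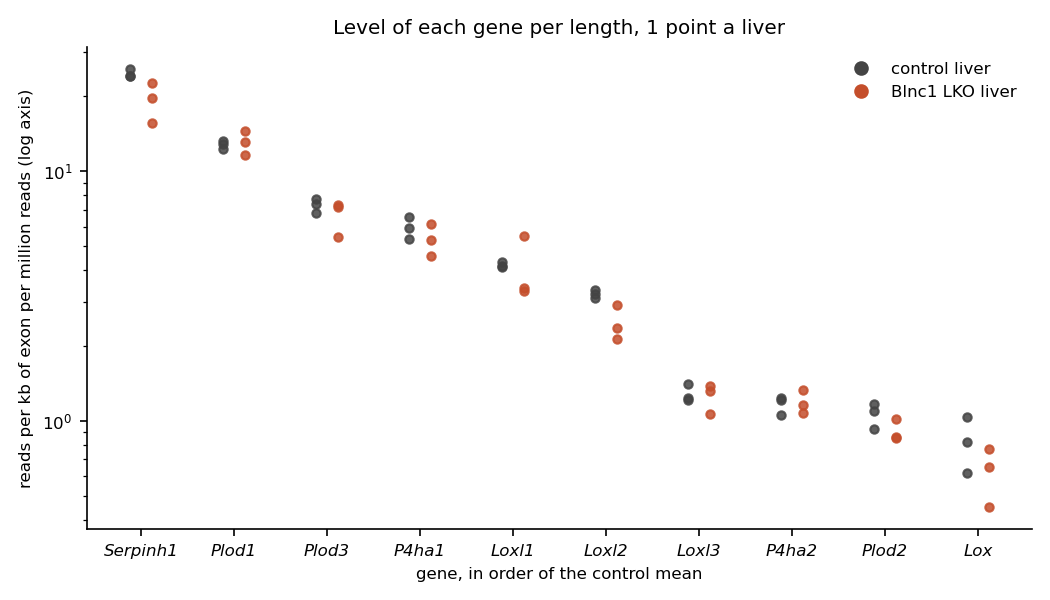
Level of each of the 10 genes in each liver, in RPKM on a log axis, with control livers in gray and Blnc1 LKO livers in orange and genes ordered by the control mean. Serpinh1 averaged 24.6 and Lox 0.82 in control livers, and the points of the last 4 genes overlap.

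In Blnc1 LKO livers, 8 of the 10 genes had a lower mean log2 value and 2, Plod1 and P4ha2, a higher one, where 50.4% of all 17297 genes tested had a lower mean. The differences were small. The fitted log2 fold changes lay between -0.40 and 0.03, with a median of -0.145 beside -0.001 over all genes. For Loxl2 and Serpinh1 all 3 Blnc1 LKO livers lay below all 3 control livers, which held for 5.28% of all genes, and none of the 10 lay wholly above, which held for 5.35%. The same 2 genes had an unadjusted p under 0.05 in limma, as did 5.68% of all genes (2.74% lower and 2.94% higher). None of the 10 passed an adjusted p under 0.05, which 1 gene of the whole table did (0.00578%). edgeR's quasi-likelihood test (0.0116% of all genes called at an adjusted p under 0.05) and DESeq2 (0.538% called), both run on the reads recovered from the table, called 0 of the 10 at that threshold, and each gave the same 2 genes an unadjusted p under 0.05, as they did for 5.6% and 4.89% of all genes. Fold changes are on the scale of log2(value + 1).

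Serpinh1 encodes Hsp47, a chaperone devoted to collagen. Its normalized read counts were 4372, 4651 and 4379.9 in control livers against 2979, 3927 and 3585 in the Blnc1 LKO livers. All 3 Blnc1 LKO livers lay below the lowest control liver, and the control livers lay close together. The means were 4468 ± 159 and 3497 ± 480 (SD, n = 3 each), which is 21.7% lower in Blnc1 LKO livers. The log2 fold change was -0.36 with a standard error of 0.09 and a 95% interval from -0.58 to -0.15. Its unadjusted p of 0.00454 ranked 124 among all genes, and the adjusted p was 0.619 (limma), 0.681 (edgeR) and 0.106 (DESeq2). The gene lies on chromosome 7 (99345376 to 99353239, - strand).

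Loxl2, a lysyl oxidase that acts on collagen IV and fibrillar collagens, gave 1295, 1244 and 1353 in control livers. The Blnc1 LKO livers gave 896, 1124 and 952, again all below the lowest control value. Means were 1297 ± 54.2 and 990.8 ± 118.5 (SD, n = 3 each), 23.6% lower in Blnc1 LKO livers, and the 95% interval of the ratio ran from 0.658 to 0.879. The log2 fold change of -0.39 (standard error 0.09) had an unadjusted p of 0.00223, rank 67, and an adjusted p of 0.548 (limma), 0.543 (edgeR) and 0.0524 (DESeq2). How reads shared with the pseudogene copy were counted is not given in the sources used here, and their part in this difference was not tested. Loxl2 lies on chromosome 14 (69609068 to 69695834, + strand).

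The other lysyl oxidases did not separate the groups. Lox, which crosslinks collagens and elastin, had 291, 218 and 369.6 in control and 287, 222 and 160.4 in Blnc1 LKO livers. Its mean was 23.9% lower, nearly the same size as for Loxl2, but each group spread widely, and the 95% interval of the log2 fold change ran from -0.96 to 0.16 (unadjusted p = 0.138, limma). With 1 liver left out it was lowest at -0.60 without Blnc1 LKO replicate 1 (unadjusted p = 0.0371, limma). It was nearest 0 at -0.18 without Blnc1 LKO replicate 3 (unadjusted p = 0.446, limma). Loxl1, an oxidase linked to elastic fibres, had 1023, 1011 and 1066 in control livers against 871, 1296 and 817 in Blnc1 LKO livers. Its control livers were tightly grouped, whereas Blnc1 LKO replicate 2 lay above and the other two below all of them, and the log2 fold change was -0.09 (95% interval from -0.44 to 0.27). Without Blnc1 LKO replicate 2 it was -0.29 (unadjusted p = 0.00442, adjusted p = 0.26, limma). In that fit 10.7% of all genes had an unadjusted p under 0.05. Without Blnc1 LKO replicate 3 the log2 fold change of Loxl1 was 0.04 (unadjusted p = 0.799, limma). Loxl3 had 411, 477 and 425 against 379.6, 451 and 452, with a log2 fold change of -0.04 (95% interval from -0.28 to 0.21). Loxl4, the remaining member of the family, had 174, 232 and 241 against 182, 244 and 196 (log2 fold change -0.05, unadjusted p = 0.755, limma).

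Among the lysyl hydroxylases, Plod2 makes the hydroxylysines of the collagen telopeptides, which give the crosslinks typical of scar tissue. Its values were 370.1, 436 and 471 in control and 359, 389.9 and 344 in Blnc1 LKO livers. One Blnc1 LKO liver, replicate 2, reached into the control range. The log2 fold change was -0.22 (95% interval from -0.48 to 0.04, unadjusted p = 0.0907, limma). With 1 liver left out it was lowest at -0.31 without control replicate 1 (unadjusted p = 0.0280, limma). It was nearest 0 at -0.14 without control replicate 3 (unadjusted p = 0.29, limma). Plod3, which also glycosylates hydroxylysine, had 2467, 2578 and 2306 in control livers. In Blnc1 LKO livers it had 1908, 2326 and 2476, so that replicate 1 was low and replicates 2 and 3 lay within the control range (log2 fold change -0.14, 95% interval from -0.36 to 0.08). Without Blnc1 LKO replicate 1 the log2 fold change of Plod3 was -0.03. Plod1, which hydroxylates lysines of the helix, had 6629, 6429.6 and 6224 against 6097, 6341 and 7292. Blnc1 LKO livers lay on both sides of the control livers, and the log2 fold change was 0.03 (95% interval from -0.14 to 0.19).

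The catalytic prolyl 4-hydroxylase subunits also overlapped between the groups. P4ha1, the main alpha subunit in most tissues, had 1627, 1991 and 1816 in control livers against 1459, 1555 and 1891 in Blnc1 LKO livers. Its log2 fold change was -0.15 (95% interval from -0.40 to 0.10, unadjusted p = 0.201, limma). It was -0.07 without Blnc1 LKO replicate 1 (unadjusted p = 0.518, limma) and -0.26 without Blnc1 LKO replicate 3 (unadjusted p = 0.0268, limma). P4ha2 had 560.3, 569 and 493 against 519, 514 and 619, with a log2 fold change of 0.02 (95% interval from -0.21 to 0.26). Replicate 3 was the lowest of the control livers and the highest of the Blnc1 LKO livers. The scarce P4ha3 had between 13.4 and 34.1 in the 6 livers. P4hb, which serves many secreted proteins as a disulfide isomerase, had values between 122206 and 139922 and a log2 fold change of 0.08 (unadjusted p = 0.39, limma). Per kb of exon, P4hb RNA exceeded the summed alpha subunits 74.3-fold to 107.8-fold in the 6 livers. This ratio is lower with the longest transcript as the length, by which P4ha2 was at 2.38 in place of 1.17 RPKM in control livers.

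**Figure D2:**
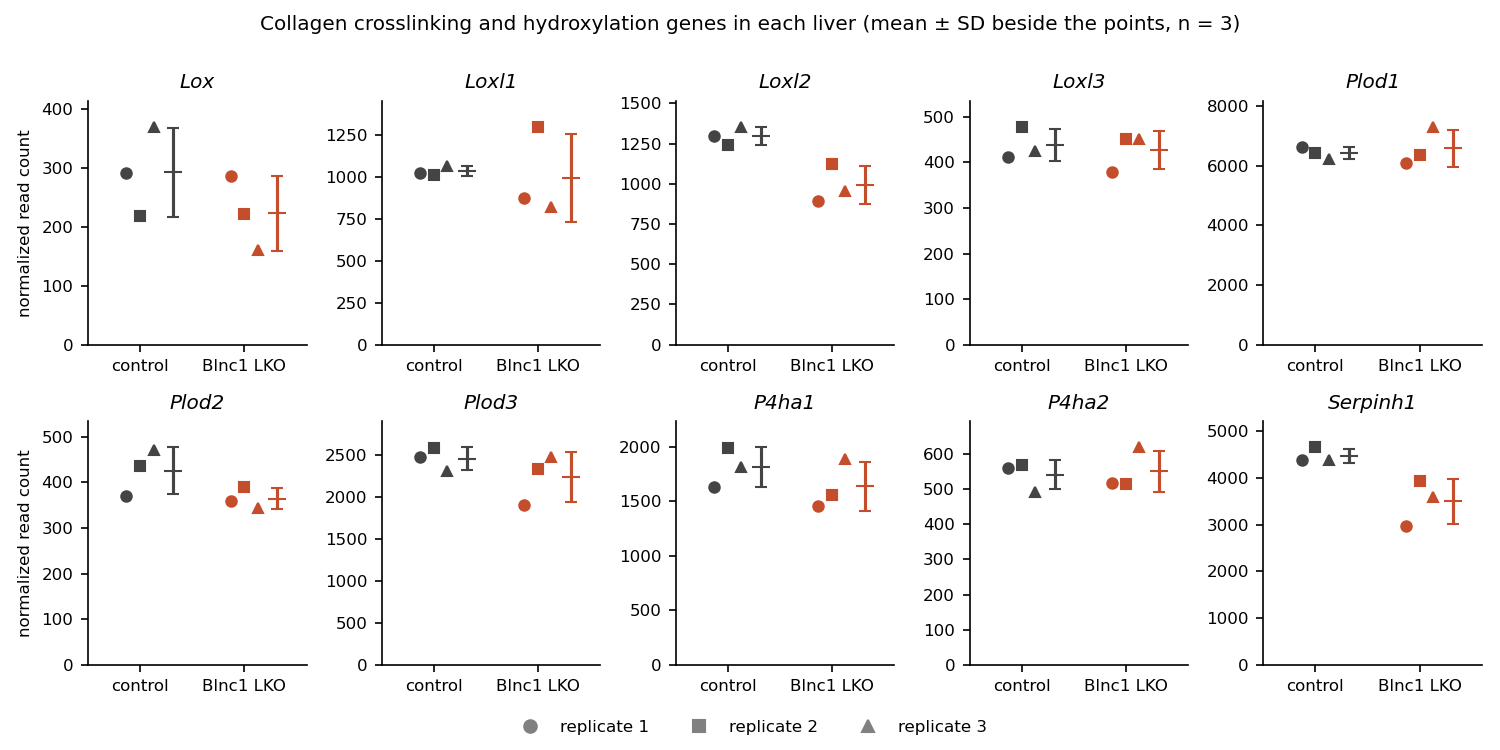
Normalized read count of each gene in each liver, with 1 symbol per replicate number and the mean ± SD (n = 3) beside the points, control in gray and Blnc1 LKO in orange, on axes that start at 0. For Loxl2 and Serpinh1 all 3 Blnc1 LKO livers lie below the control livers, and for the other 8 genes the groups overlap.

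The livers did not contribute equally. Blnc1 LKO replicate 1 had the lowest value of all 6 livers for 6 of the 10 genes (Loxl2, Loxl3, Plod1, Plod3, P4ha1 and Serpinh1), and Blnc1 LKO replicate 3 for Lox, Loxl1 and Plod2. Replicate 3 also had the highest value for Plod1 and P4ha2. Averaged over the 10 genes, the log2 deviation from the control mean was -0.26, -0.09 and -0.17 in Blnc1 LKO replicates 1, 2 and 3, and between -0.04 and 0.03 in the control livers. Summed normalized read counts of the 10 genes were between 18903 and 19606 in control and between 15754 and 18588 in Blnc1 LKO livers. With Blnc1 LKO replicate 2 left out, 4 genes in place of 2 were lower in both remaining livers than in every control liver, the additional ones being Loxl1 and Plod2. Over all genes this share rose likewise, from 5.28% to 13.6%, so nothing about the 10 genes is read from it.

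**Figure D3:**
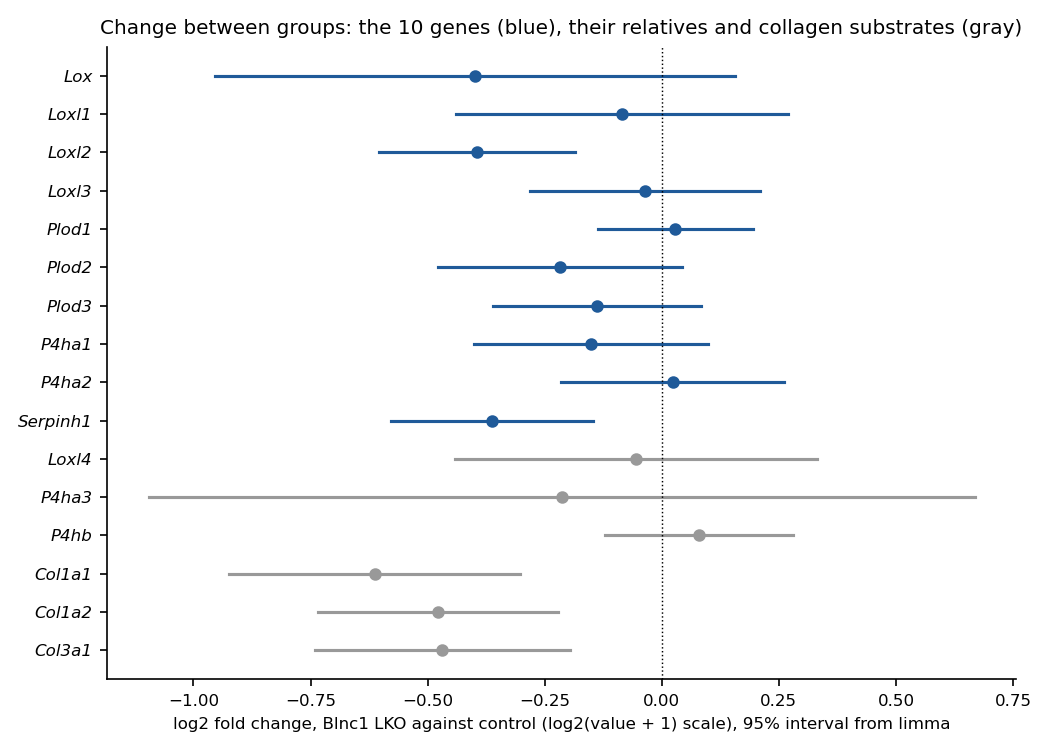
Log2 fold change of Blnc1 LKO against control livers with its 95% interval from limma, on the log2(value + 1) scale, for the 10 genes (blue) and for their relatives and collagen substrates (gray). The intervals of Loxl2 and Serpinh1 lie below 0, those of the other 8 genes include 0, and Col1a1 at -0.61 lies lowest.

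The make-up of each enzyme family was compared per kb of exon, which does not depend on the scaling between livers. It does depend on the length taken for each gene, here that of all exons, and the SD does not measure this. Of the RNA of the lysyl oxidase family, Loxl1 made up 41.2% ± 0.74 and Loxl2 31.5% ± 0.68 in control livers (SD, n = 3). The share of Loxl2 was 32.3%, 31.1% and 31.3% in control livers against 26.9%, 25.9% and 29.3% in Blnc1 LKO livers. It was lower in all 3 Blnc1 LKO livers, by 4.19 percentage points on average. Loxl1 took 44.3% ± 4.08 in Blnc1 LKO livers. Lox, Loxl3 and Loxl4 made up 8.01%, 12.5% and 6.72% in control and 7.03%, 14.0% and 7.31% in Blnc1 LKO livers. All shares of this family depend on the value of Loxl2, which is uncertain because of its pseudogene copy.

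Among the lysyl hydroxylases, the share of Plod1 was 61.5%, 59.3% and 60.6% in control and 64.8%, 61.5% and 63.8% in Blnc1 LKO livers. It was higher in all 3 Blnc1 LKO livers, by 2.90 percentage points, although the lowest of them exceeded the highest control liver only slightly. Plod3 took 34.5% ± 1.02 in control and 32.2% ± 1.71 in Blnc1 LKO livers, and Plod2 5.03% ± 0.72 and 4.44% ± 0.57 (SD, n = 3 each). P4ha1 held 82.3% ± 1.5 of the alpha subunit RNA in control and 80.7% ± 0.82 in Blnc1 LKO livers. The exact permutation test, two-sided, gave p = 0.1 for the shares of Loxl2 and Plod1, the smallest p that 3 against 3 livers allow, and 0.55 after adjustment over the 11 shares. It gave p of 0.2 or more for the other 9, so no share passed the threshold, which this design cannot reach for a single value.

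**Figure D4:**
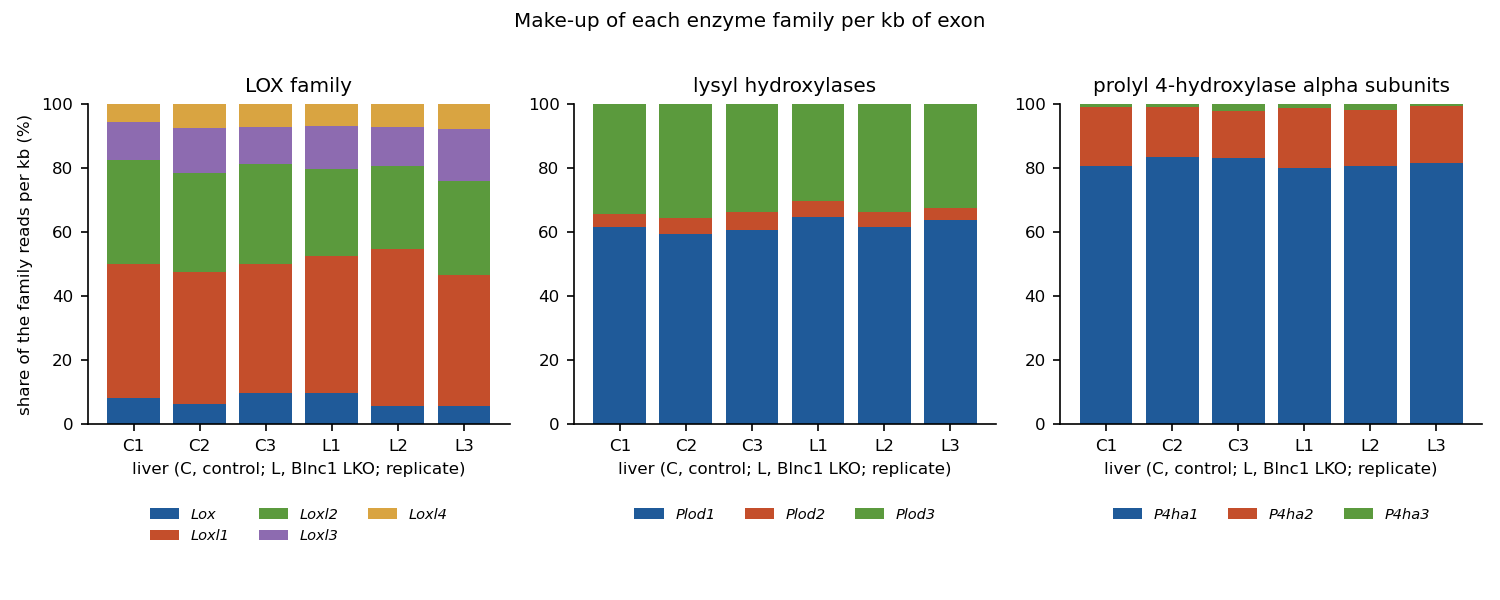
Share of each family member in the RNA of its family per kb of exon (percent), in the 3 control livers (C1 to C3) and the 3 Blnc1 LKO livers (L1 to L3). Loxl2 takes 31.5% on average in control and 27.4% in Blnc1 LKO livers, Plod1 60.5% and 63.4%, and P4ha1 80.0% to 83.3% in the 6 livers. The shares depend on the length taken for each gene, here that of all exons.

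The 3 main fibrillar collagen chains of the liver had fold changes below that of any of the 10 genes. Col1a1, the alpha-1 chain of type I collagen, had 15541, 11645 and 14716 in control and 8006, 10928 and 8499.7 in Blnc1 LKO livers (log2 fold change -0.61, adjusted p = 0.548, limma). Col1a2 and Col3a1 had log2 fold changes of -0.48 and -0.47. All 3 were lower in every Blnc1 LKO liver, although Blnc1 LKO replicate 2 and control replicate 2 lay close together. DESeq2 on recovered reads gave Col1a1, Col1a2 and Col3a1 adjusted p-values of 0.00462, 0.0161 and 0.0247, whereas edgeR gave 0.543, 0.551 and 0.654.

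To compare enzyme with substrate within a liver, the log2 value of each gene was set against the mean log2 value of Col1a1, Col1a2 and Col3a1. The same collagen mean was subtracted from every gene of a liver, so each difference is the gene's own fold change shifted by the same amount. The mean of this ratio was higher in Blnc1 LKO livers for all 10 genes. That sign follows from the lower collagen values, and the order of the genes is that of their fold changes. Its difference between the groups was smallest for Lox, Loxl2 and Serpinh1, at 0.12, 0.13 and 0.16 on the log2 scale. It was largest for Plod1 at 0.55, P4ha2 at 0.54, Loxl3 at 0.48 and Loxl1 at 0.43. For Plod1 the log2 ratio was -1.62, -1.31 and -1.67 in control and -0.97, -1.27 and -0.72 in Blnc1 LKO livers, and for Loxl1 it was -4.32, -3.97 and -4.22 against -3.77, -3.56 and -3.88. In these 2 genes every Blnc1 LKO liver lay above every control liver. Their own log2 fold changes were 0.03 and -0.09, so the separation comes mainly from the collagen values. For Loxl2 the ratio was -3.98, -3.67 and -3.88 in control and -3.73, -3.76 and -3.66 in Blnc1 LKO livers, which overlap. By the exact permutation test the smallest p among the 10 ratios was 0.1, the least the design allows, and the adjusted p was 0.375 or more for each. The direction rests on the choice of reference. Against the mean of the stellate cell and myofibroblast markers in place of collagen, 7 of the 10 genes had the opposite sign. The differences of Loxl2 and Serpinh1 were -0.32 and -0.28 (exact permutation p = 0.1 each, unadjusted), and p was 0.3 or more for the others. The marker mean deviated from control by -0.185, 0.041 and -0.092 in Blnc1 LKO replicates 1, 2 and 3. This ratio therefore stays near each gene's own fold change and does not separate it from stellate cell content.

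**Figure D5:**
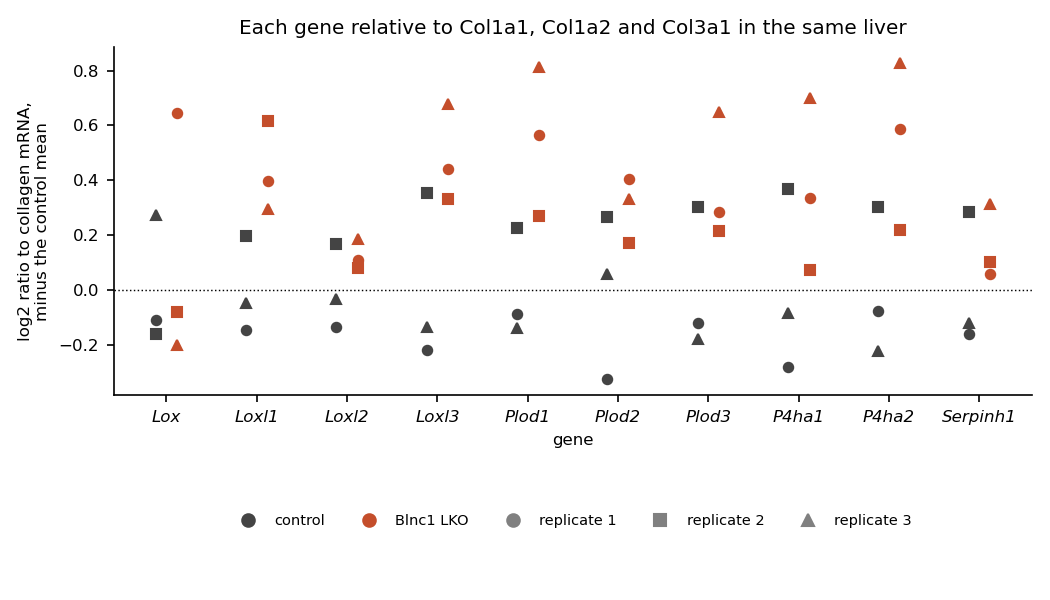
Log2 ratio of each gene to the mean of Col1a1, Col1a2 and Col3a1 in the same liver, minus the control mean, with control livers in gray, Blnc1 LKO livers in orange and 1 symbol per replicate number. The Blnc1 LKO points lie wholly above the control points for Loxl1 and Plod1, and overlap them for the other 8 genes. The same collagen mean is subtracted from every gene of a liver.

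Other steps of collagen production were followed in lists of 74 genes beside the 10. The lists were chosen with earlier results of these data known. Of the 74 genes, 52 had a lower and 22 a higher mean in Blnc1 LKO livers, where 50.4% of all genes had a lower mean. Their median log2 fold change was -0.06. An unadjusted p under 0.05 (limma) was reached by 13 genes that were lower and 3 that were higher, and none had an adjusted p under 0.05 in limma. Over all genes, 2.74% were lower and 2.94% higher at that unadjusted p. The same shares stand beside the counts of each list and of the cell markers below. In DESeq2 the adjusted p was under 0.05 for Col1a1, Col1a2, Col3a1 and Col5a2, and in edgeR it was between 0.543 and 0.654 for them. DESeq2 called 0.538% of all genes at that threshold. The count of 16 was between 9 and 29 when 1 liver was left out. It was 9 without control replicate 1, 10 without control replicate 2, control replicate 3 or Blnc1 LKO replicate 1, and 29 without Blnc1 LKO replicate 2. The share over all genes moved with it, from 5.68% to 3.84% without control replicate 1 and to 10.7% without Blnc1 LKO replicate 2.

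The fibrillar collagens and elastin are the substrates that the enzymes act on. Of 8 genes, 5 were lower at an unadjusted p under 0.05 (Col1a1, Col1a2, Col3a1, Col5a1 and Col5a2), and Col5a3 was higher at a log2 fold change of 0.24. Col5a2, a chain of the type V collagen that starts fibrils, had a log2 fold change of -0.41 (unadjusted p = 0.00213, limma). Its adjusted p was 0.548 (limma), 0.543 (edgeR) and 0.0302 (DESeq2). Elastin (Eln), the other substrate of Lox and Loxl1, had between 728 and 1272 in the 6 livers and a log2 fold change of -0.11 (unadjusted p = 0.583, limma).

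Of 22 further genes for collagen folding, modification and export, 16 had a lower mean, 2 reached an unadjusted p under 0.05 below control and 1 above. Creb3l1, a transcription factor that drives collagen genes and secretory capacity, had a log2 fold change of -0.44, with 477, 495 and 464 in control and 294, 478 and 313 in Blnc1 LKO livers. Blnc1 LKO replicate 2 again lay with the control livers. Fkbp7, a prolyl isomerase of the endoplasmic reticulum, had -0.20, and Fkbp11, of the same family, 0.25. The partners of prolyl 3-hydroxylation, P3h1 and Crtap, had 0.01 and -0.19, and the collagen galactosyltransferase Colgalt1 had -0.11, none with an unadjusted p under 0.05.

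Of 21 genes for propeptide processing and fibril assembly, 17 had a lower mean, 6 reached an unadjusted p under 0.05 below control and 1 above. Postn, which brings the propeptidase Bmp1 to the matrix, had 3140, 2497 and 2721 in control and 1930, 2417 and 1983 in Blnc1 LKO livers (log2 fold change -0.40, unadjusted p = 0.00522, limma). Sparc, a collagen-binding protein, had a log2 fold change of -0.26, and Tgm2, a transglutaminase that crosslinks matrix by a route that does not need lysyl oxidase, had -0.31. All 3 were lower in every Blnc1 LKO liver. Pcolce2, an enhancer of propeptide cleavage, was higher in every Blnc1 LKO liver at 0.44. Bmp1 itself had -0.03 (unadjusted p = 0.533, limma).

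Genes that mark hypoxia and genes for ascorbate, a cofactor of the hydroxylases, were also listed. Of 15 targets of HIF, none had an unadjusted p under 0.05 (limma), and their median log2 fold change was -0.003. Of 5 genes for the synthesis and transport of ascorbate, none had an unadjusted p under 0.05 in limma. The nearest was Rgn, a lactonase of ascorbate synthesis, with a log2 fold change of 0.30 and an unadjusted p of 0.0502 (limma), 0.0339 (edgeR) and 0.0108 (DESeq2). Gulo, which makes the last step of ascorbate synthesis in mice, had a log2 fold change of 0.10.

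Markers of cell types were read beside these genes. Hepatocyte markers were abundant in all livers, with Alb at 5.07% to 5.98% of reads, and no marker was at 0 in all livers. Of 17 stellate cell and myofibroblast markers, 12 had a lower mean and 3 an unadjusted p under 0.05, all lower. Acta2, the actin of activated stellate cells and smooth muscle, had 558, 574 and 528 in control and 332, 425 and 404 in Blnc1 LKO livers (log2 fold change -0.52, unadjusted p = 0.0012, limma). Rgs5 and Tagln had log2 fold changes of -0.29 and -0.29. Adjusted p-values of Acta2, Rgs5 and Tagln were 0.548, 0.548 and 0.840 in limma, and 0.0157, 0.0492 and 0.615 in DESeq2. The other 14 lay between -0.35 (Timp1) and 0.18 (Ecm1, the most abundant of the list), none with an unadjusted p under 0.05. The summed values of the 17 overlapped, from 46475 to 50340 in control and from 44711 to 51344 in Blnc1 LKO livers.

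Of 8 portal fibroblast and smooth muscle markers, 5 had a lower mean and none an unadjusted p under 0.05 (Gas6, the most abundant, at -0.16), with sums from 19857 to 21856 and from 16098 to 22818. Of 12 sinusoidal endothelial markers, 8 had a lower mean and 4 an unadjusted p under 0.05, all lower, among them Lyve1 at -0.57, Flt4 at -0.29 and Pecam1 at -0.17, whereas the most abundant, Stab2, had 0.06. Their sums were 44616 to 48194 in control and 43558 to 44470 in Blnc1 LKO livers. These did not overlap, although the highest Blnc1 LKO sum lay only slightly below the lowest control sum. Of 14 macrophage markers, 5 were higher and 2 lower at that p, and the sums overlapped (98329 to 104381 and 101089 to 108411). Marco, a scavenger receptor, was higher in every Blnc1 LKO liver, with 32.6, 87.4 and 23.4 in control against 794, 95.8 and 509 in Blnc1 LKO livers (log2 fold change 3.03, unadjusted p = 0.0033, limma). Vsig4 had 1.04 and Adgre1 0.15, Ccr2 had -0.33 and Gpnmb -0.54, and Lyz2, the most abundant, had 0.05. None of 11 hepatocyte markers was lower at that p, and Cyp2e1 was higher at 0.40 (adjusted p = 0.851 in limma and 0.0324 in DESeq2). No marker of lymphocytes (9 genes), cholangiocytes (8) or the mesothelium (4) had an unadjusted p under 0.05, and their most abundant genes Cd8a, Spp1 and Wt1 had log2 fold changes of -0.19, -0.15 and 0.38. The part of activated stellate cells and of endothelial cells in the lower values of Loxl2 and Serpinh1 was not tested.

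The genes of the whole table whose deviations over the 6 livers lay nearest to those of each enzyme were listed as a description. The search covered 13331 genes with a mean of at least 50, and the 6 livers share their libraries and scaling across genes. Nearest to Loxl2 was Col5a1, a chain of type V collagen, with a root mean square log2 difference of 0.04 (r = 0.99). St6galnac4 came next at 0.04 (r = 0.99). Nearest to Loxl1 were Fchsd1 (0.04, r = 0.99) and then Pdgfrb, the receptor of the main stellate cell mitogen (0.05, r = 0.98). Serpinh1 lay nearest to Krt8, a keratin of hepatocytes and bile duct cells, and then to Cpz, a secreted carboxypeptidase. Plod2 lay nearest to Ace, and P4ha1 to Hspa8, a chaperone of the cytosol. Loxl3, Plod1, Plod3 and P4ha2 lay nearest to Ntn4, Mtf1, Ino80e and Rad54l2, in that order. Over the nearest genes listed for each enzyme, r was between 0.934 and 0.997, so a high r sets no pair apart. Lox lay nearest to Gls2, at a larger difference of 0.14 (r = 0.968). Such a difference grows with the spread of a gene's own values, which was wide for Lox.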

How the data were processed

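Liver RNA from 3 control and 3 Blnc1 LKO mice was sequenced. Per the labels, the submitters' processing used FastQC, STAR, HTSeq, DESeq2 and mm10, and tool versions and annotation are not given in the sources used here. The signal in the deposited table is read counts that the authors divided by a size factor per liver, and 100% of values were whole multiples of 1 read (tolerance 0.05). Columns named for wild-type and knockout livers were matched to control and Blnc1 LKO by number. The plan named edgeR for raw counts, which these are not. limma 3.58.1 (R 4.3.3, with trend) was therefore fitted to log2(value + 1) for the 17297 genes that reached a value of 1 in 3 or more livers, and p-values were adjusted over all of them (Benjamini-Hochberg). edgeR 4.0.16 and DESeq2 1.42.0 were run on recovered reads, and the fits were tested on simulated data. Shares and ratios were compared by exact permutation (Python 3.11.15). Lengths came from GENCODE M21. The members and lists (167 genes found, 2 not) were chosen with earlier results of these data known. Named in the text are the members, their family relatives, 3 collagens, up to 3 genes in each direction of smallest unadjusted p under 0.05 per list with the most abundant marker of each cell type, and nearest patterns. Eln, Bmp1, Gulo, Rgn, Timp1, P3h1, Crtap and Colgalt1 were named after their values were seen.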

Additional observations from a re-analysis of the deposited data

How the results depend on the processing

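The count of the 10 genes past an adjusted p of 0.05 was 0 under each of the 10 alternatives (pseudocount 0.1, no filter, at least 10 reads in every liver, replicate block, TMM, library total, edgeR, DESeq2 with and without the block, voom) and with each liver left out. With 1 liver left out, the genes lower in every Blnc1 LKO liver were 2 to 4. Over all genes that share went from 5.28% to between 8.6% and 13.6%. The other collagen genes at an unadjusted p under 0.05 were 9 to 29, where the share over all genes went from 5.68% to between 3.84% and 10.7%. Loxl2 and Serpinh1 kept their direction and an unadjusted p under 0.05 in each of these fits. Fold changes of the pair lay from -0.40 to -0.39 and from -0.37 to -0.35 (log2) under the 10 alternatives, with adjusted p from 0.0524 to 0.787 and from 0.0820 to 0.856 (DESeq2 lowest), and from -0.49 to -0.33 and from -0.45 to -0.25 with 1 liver left out. Signs turned for Loxl1 (-0.29 to 0.04), Loxl3 (-0.08 to 0.047), Plod1 (-0.047 to 0.08) and P4ha2 (-0.064 to 0.07) with 1 liver left out, and the cause was not tested. Against stellate cell markers the ratio turned to -0.32 for Lox, -0.007 for Loxl1, -0.32 for Loxl2, -0.14 for Plod2, -0.06 for Plod3, -0.073 for P4ha1 and -0.28 for Serpinh1, and the collagen ratio of Lox was -0.14 without Blnc1 LKO replicate 1 and at most 0.282 (without Blnc1 LKO replicate 3). Equal replicate numbers did not pair the livers (correlations of deviations -0.05, 0.02 and -0.17). A replicate block in the limma fit gave 0 genes of the 10 at an adjusted p under 0.05, 2 at an unadjusted p under 0.05, and adjusted p of 0.725 for Loxl2 and 0.604 for Serpinh1. With 3 livers a group, the printed intervals give the precision.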
